A study of Mus musculus with 18 samples.

Results

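The TNF superfamily ligands FASL, TRAIL, LIGHT and the lymphotoxins, with their receptors FAS, TNFR1, TNFR2 and DR5, were followed in CD3+ tumor-infiltrating lymphocytes (TILs) of mice with and without the nuclear receptor gene Nr2f6. The members were taken by gene symbol: the ligand genes Fasl, Tnfsf10, Tnfsf14, Lta and Ltb and the receptor genes Fas, Tnfrsf1a, Tnfrsf1b and Tnfrsf10b. All 9 have a row among the 37236 genes listed, and all 9 passed the filter for testing, a mean of 10 or more normalized counts, as did 11992 genes. C57BL/6 mice carried 500000 subcutaneous B16-OVA cells, a mouse melanoma line that expresses ovalbumin, and their tumors were taken on day 14. From day 3 on they were given 0.5 mg per injection of an antibody against PD-L1, the ligand of the inhibitory receptor PD-1, or of the control antibody IgG2b. The 4 groups were Nr2f6+/+ with IgG2b (n = 3), Nr2f6-/- with IgG2b (n = 3), Nr2f6+/+ with αPD-L1 (n = 6) and Nr2f6-/- with αPD-L1 (n = 6), and the labels give no age. The deletion is germline, so the cells around the T cells lack Nr2f6 as well, while the tumor cells came from the same line in all groups. Each sample is bulk RNA of CD4+ and CD8+ cells, enriched with beads, pooled and sorted for CD3. The library is read from the 3′ ends of transcripts, and a normalized count is a read count divided by the size factor of its sample.

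FASL and TRAIL are the classical death ligands of cytotoxic lymphocytes. On a target cell they cluster FAS or a TRAIL receptor, whose death domain recruits an adaptor and an initiator caspase and so starts apoptosis. TNFR1 also carries a death domain but mainly drives NF-kB signalling through ubiquitin-dependent complexes, whereas TNFR2 lacks one and is a costimulatory receptor of activated and regulatory T cells. Lymphotoxin-α binds both TNF receptors when secreted, and together with lymphotoxin-β it forms a membrane complex that engages the lymphotoxin-β receptor on stromal and myeloid cells. LIGHT shares that receptor and also binds HVEM on lymphocytes.

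Reads counted on genes ranged from 12473391 to 18609482 per sample, so that 3 reads, the floor used here, equalled 2.46 to 3.64 normalized counts (counting error only). Nr2f6 was at 0 in all 9 Nr2f6-/- samples and between 20.2 and 201 in the 9 Nr2f6+/+ samples. The T cell markers were present in every sample. Their 7 genes summed to 52543 to 66168 normalized counts in Nr2f6+/+ IgG2b, 70289.6 to 76186 in Nr2f6-/- IgG2b, 60490.0 to 83691 in Nr2f6+/+ αPD-L1 and 78849.8 to 94521 in Nr2f6-/- αPD-L1 samples. The summed level of 14 macrophage markers was 16425 to 20708 in Nr2f6+/+ IgG2b, 9611 to 13281 in Nr2f6-/- IgG2b, 1731 to 7201 in Nr2f6+/+ αPD-L1 and 1068 to 2781 in Nr2f6-/- αPD-L1 samples. No macrophage marker was at 0 throughout a group, and all 14 had a lower mean log2 level with αPD-L1 in both genotypes. The neutrophil sum stayed between 0 and 249.7. The 6 B cell markers summed to 2352 to 4159.8 in Nr2f6+/+ IgG2b, 1876 to 3694 in Nr2f6-/- IgG2b, 901 to 2688 in Nr2f6+/+ αPD-L1 and 1412 to 2641 in Nr2f6-/- αPD-L1 samples, with Cd79a at 0 in every sample. The 4 NK cell markers summed to between 264 and 1423 in the IgG2b and between 270.3 and 1875 in the αPD-L1 samples, with Ncr1 at 0 in all 6 IgG2b samples. Summed platelet markers were 2300.4 to 2611 in Nr2f6+/+ IgG2b samples and at most 703 in the other groups, with Gp9 at 0 in every sample, and melanocyte markers summed to 736 to 7137. In bulk samples fewer cells of a type and less RNA per cell cannot be told apart. Library numbers in the labels form 2 sets. Replicates 1 to 3 of every group are in the first and replicates 4 to 6 of the αPD-L1 groups in the second, so the IgG2b groups can be compared with αPD-L1 samples of the same set only through the first. The labels do not say what the sets stand for. They also do not say that replicates are separate mice, so p-values measure the spread between these samples.

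The genes lie at chr1:161780689-161788495 (Fasl), chr3:27317028-27342427 (Tnfsf10), chr17:57189492-57194177 (Tnfsf14), chr19:34290666-34327772 (Fas), chr6:125349362-125362484 (Tnfrsf1a), chr4:145213463-145246870 (Tnfrsf1b) and chr14:69767472-69784411 (Tnfrsf10b) of GRCm38. Lta (chr17:35203165-35205351) and Ltb (chr17:35194439-35196320) flank Tnf (chr17:35199381-35202007) within 10.9 kb. The annotation places the short genes Gm27818, Mir6974 and Mir6973a across part of Fas, Lta and Ltb on the same strand. Reads there overlap both genes, and the sources used here do not say how such reads were counted. RefSeq promoter sequence was matched for 8 of the 9 members, all but Tnfrsf10b. The 250 bases before the start were searched on both strands for an NF-kB consensus, the AP-1 element TGANTCA, the nuclear receptor half-site AGGTCA and an interferon-type pair of GAAA repeats 2 bases apart. Of 32851 mouse promoters 7.25% hold the first, 6.75% the second, 4607 the half-site and 2.98% the repeat. The lymphotoxin pair is shown because it had the lowest unadjusted p-values of the members, and Fas and Tnfsf14 because they hold the AP-1 letters. Capitals mark the match, and the windows are in GRCm38.p6, 5′ to 3′ on the strand of the gene.
Ltb (chr17:35194257-35194506, plus strand): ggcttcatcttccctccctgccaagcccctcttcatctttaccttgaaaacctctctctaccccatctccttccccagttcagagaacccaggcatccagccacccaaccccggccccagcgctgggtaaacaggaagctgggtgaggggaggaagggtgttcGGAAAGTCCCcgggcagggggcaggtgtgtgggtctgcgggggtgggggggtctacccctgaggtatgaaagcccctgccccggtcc
Lta (chr17:35205352-35205601, minus strand): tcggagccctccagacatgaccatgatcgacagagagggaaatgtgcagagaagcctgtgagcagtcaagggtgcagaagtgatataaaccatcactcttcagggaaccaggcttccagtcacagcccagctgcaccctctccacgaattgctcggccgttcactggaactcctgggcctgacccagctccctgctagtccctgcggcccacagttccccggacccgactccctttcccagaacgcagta
Fas (chr19:34290409-34290658, plus strand): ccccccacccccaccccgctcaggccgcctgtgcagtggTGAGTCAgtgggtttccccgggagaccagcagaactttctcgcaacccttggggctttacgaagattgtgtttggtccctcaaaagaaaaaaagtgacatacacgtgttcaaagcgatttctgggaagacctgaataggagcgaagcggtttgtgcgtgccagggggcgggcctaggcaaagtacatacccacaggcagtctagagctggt
Tnfsf14 (chr17:57194182-57194431, minus strand): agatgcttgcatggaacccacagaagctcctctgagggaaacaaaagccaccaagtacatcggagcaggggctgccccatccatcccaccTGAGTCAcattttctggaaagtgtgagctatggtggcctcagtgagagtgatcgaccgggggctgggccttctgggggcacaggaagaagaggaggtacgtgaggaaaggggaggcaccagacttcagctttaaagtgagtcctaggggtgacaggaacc
Ltb holds the NF-kB letters from 87 to 78 bases before its start, read on the opposite strand. The AP-1 letters are at 211 to 205 bases in Fas and at 160 to 154 bases in Tnfsf14, and the GAAA repeat is at 10 to 1 bases in Tnfrsf1b, on the opposite strand. Neither Lta nor Fasl, Tnfsf10 and Tnfrsf1a hold any of the 4 motifs in this window, and the half-site AGGTCA is in none of the 8. The start used is that of RefSeq, which can differ from the gene positions given above. By those positions the Tnfrsf1a window lies inside its gene, and the Ltb and Tnfsf10 windows reach into theirs. A match is a description of the letters only.

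Fasl, the gene of the FAS ligand, was at 1008, 1971 and 755 normalized counts in the 3 Nr2f6+/+ IgG2b samples and at 937, 1709 and 1879 in the 3 Nr2f6-/- IgG2b samples. With αPD-L1, it ranged from 839.6 (median 1400.3) to 1958 in Nr2f6+/+ and from 1169 (median 1697) to 2084 in Nr2f6-/- mice. From lowest to highest, the group means were Nr2f6+/+ IgG2b (1244 ± 642, SD, n = 3), Nr2f6+/+ αPD-L1 (1355 ± 458, n = 6), Nr2f6-/- IgG2b (1508 ± 502, n = 3) and Nr2f6-/- αPD-L1 (1650.4 ± 373, n = 6), but each group overlapped every other. Tnfsf10, which encodes TRAIL, was at 544, 770.3 and 667 in Nr2f6+/+ IgG2b and at 737, 543 and 986 in Nr2f6-/- IgG2b samples. It ranged from 357 (median 595) to 788 in Nr2f6+/+ αPD-L1 and from 389 (median 773) to 1059.6 in Nr2f6-/- αPD-L1 samples, and again all groups overlapped.

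Tnfsf14, the LIGHT gene, was low and uneven. Its values were 275, 37.5 and 105 in Nr2f6+/+ IgG2b and 186, 303 and 279 in Nr2f6-/- IgG2b samples. With αPD-L1 it ran from 22.3 (median 102) to 319 in Nr2f6+/+ and from 3.72 (median 119.8) to 202 in Nr2f6-/- mice. The lowest of these, 3.72 in Nr2f6-/- αPD-L1 replicate 1, was 4 reads. The Nr2f6-/- IgG2b group had the highest mean (256) and the Nr2f6-/- αPD-L1 group the lowest (100.2). By median, however, the Nr2f6-/- αPD-L1 group (119.8) lay above Nr2f6+/+ IgG2b (105) and Nr2f6+/+ αPD-L1 (102). Its replicate 5 (202) also lay above the lowest Nr2f6-/- IgG2b sample (186).

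Both lymphotoxin genes had their highest group mean in Nr2f6+/+ IgG2b mice, at 318 ± 59.5 (SD, n = 3) for Lta and 1692 ± 191 (n = 3) for Ltb. Lta was at 254, 328 and 371 in Nr2f6+/+ IgG2b and at 213, 160.2 and 247 in Nr2f6-/- IgG2b samples. With αPD-L1 it lay between 26.5 (median 123) and 205 in Nr2f6+/+ and between 7.20 (median 95.2) and 298 in Nr2f6-/- mice. All 3 Nr2f6+/+ IgG2b samples lay above all Nr2f6-/- IgG2b and all Nr2f6+/+ αPD-L1 samples, whereas 2 Nr2f6-/- αPD-L1 samples (298 and 281) reached into their range. Ltb was at 1609, 1911 and 1557 in Nr2f6+/+ IgG2b and at 1611, 855 and 1192 in Nr2f6-/- IgG2b samples. In Nr2f6+/+ αPD-L1 samples it ranged from 449 (median 673) to 2842, and in Nr2f6-/- αPD-L1 samples from 490.2 (median 1026) to 1910.0. A single library, Nr2f6+/+ αPD-L1 replicate 1 at 2842, made the Nr2f6+/+ αPD-L1 group overlap the control, since its other 5 samples were at 1077 or lower. The Nr2f6-/- αPD-L1 samples of Ltb split by library set, with 1910.0, 1328 and 1906 in the first and 541, 723 and 490.2 in the second. In the Nr2f6+/+ αPD-L1 group the sets overlapped.

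Among the receptors, Fas was at 421, 176 and 488 in Nr2f6+/+ IgG2b and at 111, 264 and 219.6 in Nr2f6-/- IgG2b samples. It ranged from 99.3 (median 317) to 629 in Nr2f6+/+ αPD-L1 and from 164 (median 469) to 615 in Nr2f6-/- αPD-L1 samples. The Nr2f6-/- IgG2b group had the lowest mean (198 ± 78.5, SD, n = 3) and the Nr2f6-/- αPD-L1 group the highest (421 ± 195, n = 6), with overlap between them and with both Nr2f6+/+ groups. Tnfrsf1a, the TNFR1 gene, was at 623, 617 and 906 in Nr2f6+/+ IgG2b and at 801, 694 and 898 in Nr2f6-/- IgG2b samples. Its range was 364 (median 777) to 1823 in Nr2f6+/+ αPD-L1 and 599 (median 992) to 1661 in Nr2f6-/- αPD-L1 samples. All groups overlapped, and the αPD-L1 ranges enclosed the IgG2b ranges in both genotypes.

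Tnfrsf1b, which encodes TNFR2, was the most even member. Its values were 1527, 2312 and 2318 in Nr2f6+/+ IgG2b and 2622, 2560.2 and 2652 in Nr2f6-/- IgG2b samples. With αPD-L1 they ran from 1782 (median 2499) to 3176 in Nr2f6+/+ and from 2399 (median 2684) to 2840 in Nr2f6-/- mice. Every sample of both Nr2f6-/- groups lay above all 3 Nr2f6+/+ IgG2b samples, while Nr2f6+/+ αPD-L1 samples spanned both. Tnfrsf10b, the gene of the mouse TRAIL death receptor, was near the limit of detection in part of the samples. It was at 65.0, 67.7 and 89.6 in Nr2f6+/+ IgG2b, at 167, 44.3 and 83.3 in Nr2f6-/- IgG2b, between 0 (median 7.78) and 208 in Nr2f6+/+ αPD-L1 and between 2.43 (median 16.9) and 60.1 in Nr2f6-/- αPD-L1 samples. The 6 Nr2f6-/- αPD-L1 samples were all below the 3 Nr2f6+/+ IgG2b samples but overlapped the Nr2f6-/- IgG2b samples, and the Nr2f6+/+ αPD-L1 group held both the lowest and the highest value of the gene.

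**Figure D1:**
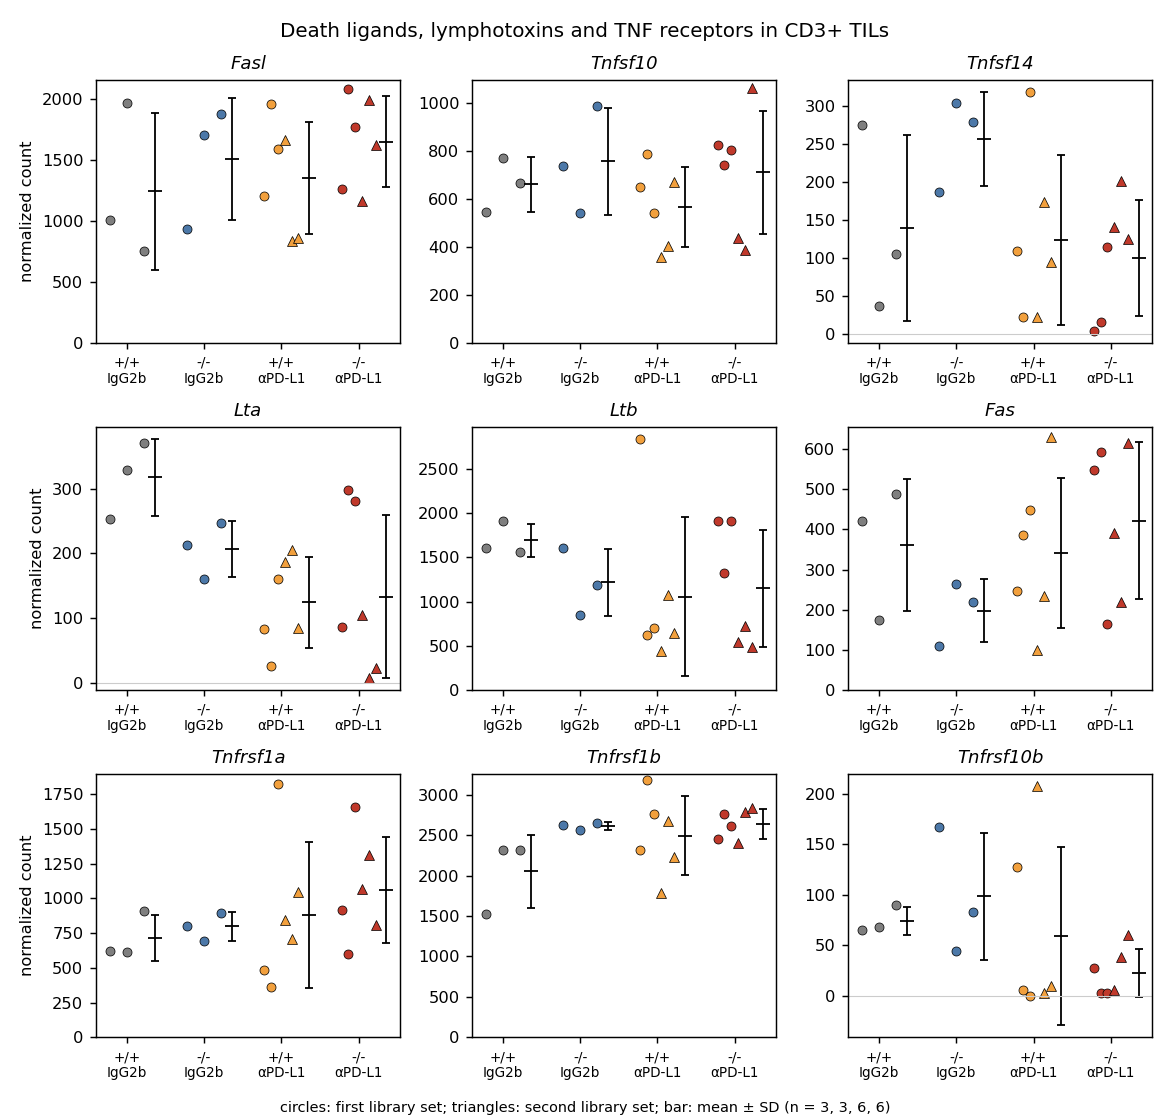
Normalized counts (y axis, linear, separate scale per panel) of the 9 genes in the 4 groups (x axis); each point is a sample, circles are the first and triangles the second library set, and bars give mean ± SD (n = 3, 3, 6, 6). Lta is highest in Nr2f6+/+ IgG2b, Ltb has 1 Nr2f6+/+ αPD-L1 sample at 2842 above the other 5, and Tnfrsf1b is even across samples.

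The members differed in how much samples of the same group varied. The residual SD of log2(normalized count + 1) within groups was 0.23 for Tnfrsf1b, lower than in all but 2.07% of the genes tested. It was 0.47 for Tnfsf10, 0.50 for Fasl, 0.60 for Tnfrsf1a, 0.79 for Ltb and 0.83 for Fas, all under the median of the genes tested (0.88). The others lay above it, with 1.39 for Lta, 1.68 for Tnfsf14 and 2.14 for Tnfrsf10b, the members with the fewest reads. The part of this spread that counting reads gives differed between members: for Lta in Nr2f6-/- αPD-L1 samples the coefficient of variation was 94.9%, against 8.65% from counting reads of the mean level, and for Tnfrsf1b in the same group 6.99% against 1.92%. In Nr2f6-/- IgG2b samples Tnfrsf1b varied no more than counting gives (1.79% against 1.93%), and for Tnfrsf10b in Nr2f6+/+ IgG2b samples the 18.1% was less than 2 times the counting value. In the other groups Tnfrsf10b varied far more than counting gives, at 64.0% against 9.95% in Nr2f6-/- IgG2b samples. It was at 149.5% against 12.8% in Nr2f6+/+ αPD-L1 and at 102.7% against 20.4% in Nr2f6-/- αPD-L1 samples. A difference was therefore easier to detect for Tnfrsf1b than for Tnfrsf10b, and the 95% intervals below differ accordingly.

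Comparing Nr2f6-/- with Nr2f6+/+ mice that both received αPD-L1 asks whether loss of Nr2f6 adds to checkpoint blockade. None of the 9 members had an adjusted p under 0.05 in limma, where 0.175% of all genes tested did. None had an unadjusted p under 0.05 either (9.73% of all genes), and edgeR and DESeq2 on the recovered reads gave 0 members at both levels. The groups overlapped for all 9, while 0.592% of the genes tested did not overlap in either direction. On the log2 scale 6 members were higher and 3 lower in Nr2f6-/- mice, with a median difference of 0.21 over the members and −0.0049 over all genes tested. Fasl differed by 0.33 (standard error 0.26, 95% interval −0.21 to 0.86, limma adjusted p = 0.726) and Tnfsf10 by 0.29 (interval −0.32 to 0.90). Both death ligands were thus higher by a difference smaller than the spread between samples, and a decrease beyond 0.32 on the log2 scale lay outside both intervals. For the receptors the differences were 0.36 for Fas (interval −0.62 to 1.33), 0.39 for Tnfrsf1a (−0.25 to 1.04) and 0.10 for Tnfrsf1b (−0.24 to 0.45). Ltb differed by 0.21 (−0.54 to 0.96). For Lta (−0.50, interval −2.11 to 1.10), Tnfsf14 (−0.55, −2.45 to 1.35) and Tnfrsf10b (−0.03, −2.62 to 2.56; −1.35 in edgeR) the intervals span several-fold changes in both directions. The sign of Lta turned to 0.11 in edgeR and 0.097 in DESeq2, that of Tnfsf14 turned without Nr2f6-/- αPD-L1 replicate 1, and that of Tnfrsf10b turned when any of 5 single replicates was left out. Of the 7 T cell markers DESeq2 called Cd8b1 here (0.61, adjusted p = 0.0414), while limma and edgeR called 0. Mean Cd8b1 was 20526 in Nr2f6-/- and 13419 in Nr2f6+/+ αPD-L1 samples, mean Cd8a 13161 and 9337, and mean Cd4 3905 and 4496. The part of these markers in the members' values was not tested.

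The same comparison could be made inside each library set, 3 against 3 samples. Tnfsf10 differed by 0.28 in the first and 0.30 in the second set, and Fasl (0.10 and 0.55), Fas (0.10 and 0.61) and Tnfrsf1a (0.50 and 0.28) also had the same sign in both. Tnfrsf1b (−0.07 and 0.28), Ltb (0.65 and −0.23) and Tnfrsf10b (−0.45 and 0.39) did not. Lta went furthest apart, with 1.42 in the first and −2.43 in the second set. In the first set the Nr2f6-/- values of Lta were 85.6, 298 and 281 against 83.5, 26.5 and 161, and in the second 105, 7.20 and 23.1 against 187, 205 and 84.1. Tnfsf14 went the other way, by −2.17 in the first and 1.07 in the second set. Tested directly in limma over the 12 αPD-L1 samples, a test chosen after these values were seen, the sets differed for Lta by −3.86 (standard error 1.69, adjusted p = 0.774) and for Tnfsf14 by 3.24 (standard error 2.01). This test called 0 of the 11992 genes, with 761 at an unadjusted p under 0.05, of which Lta was the only member.

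**Figure D2:**
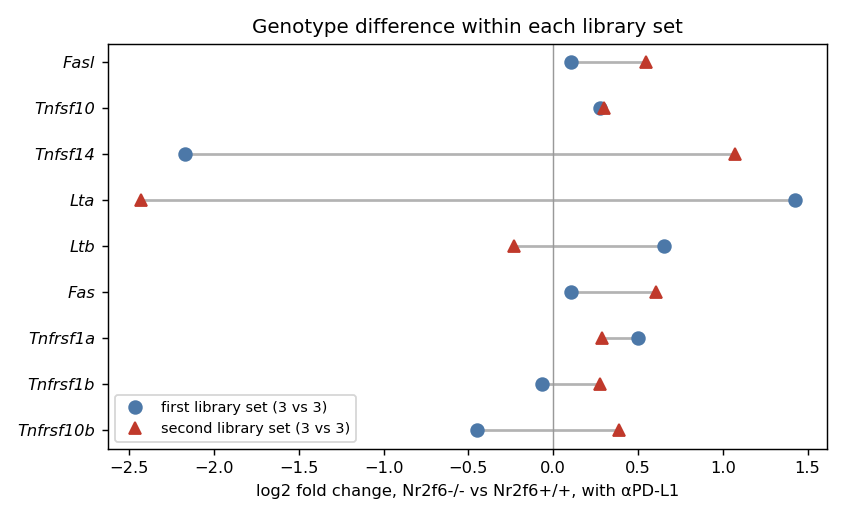
Log2 fold change of Nr2f6-/- against Nr2f6+/+ αPD-L1 samples (x axis) for the 9 genes (y axis), within the first (circles) and the second (triangles) library set, 3 against 3 samples each. Tnfsf10 is at 0.28 and 0.30, whereas Lta lies at 1.42 and −2.43 and Tnfsf14 at −2.17 and 1.07.

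Without checkpoint blockade, 6 members were higher and 3 lower in Nr2f6-/- mice (median 0.17, −0.06 over all genes tested). None of the 9 passed the adjusted threshold in limma, where 0% of all genes did, and none had an unadjusted p under 0.05 (5.35% of all genes). The other tools called no member at either level, although DESeq2 called 88 of all genes and edgeR 0. For 2 members, Lta (lower) and Tnfrsf1b (higher), the 3 samples did not overlap, which was so for 14.2% of the genes tested. Tnfrsf1b differed by 0.37 (standard error 0.24, limma adjusted p = 0.989) and Lta by −0.62 (standard error 1.11). Larger estimates came with wider errors: Tnfsf14 was at 1.27 (standard error 1.31; 1.98 without Nr2f6+/+ IgG2b replicate 1 and 0.56 without replicate 2), Fas at −0.83 (standard error 0.67) and Ltb at −0.51 (standard error 0.52).

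The effect of αPD-L1 was compared with IgG2b in each genotype. In Nr2f6+/+ mice 3 members were higher and 6 lower with αPD-L1, with a median of −0.26 (−0.10 over all genes tested). None of the 9 had an adjusted p under 0.05 in limma, edgeR or DESeq2 (0.242% of all genes in limma). Ltb alone had an unadjusted p under 0.05, against 7.24% of all genes: its difference was −0.98 on the log2 scale (standard error 0.45, limma adjusted p = 0.640). Without Nr2f6+/+ αPD-L1 replicate 1, the library at 2842, the difference was −1.33 (limma adjusted p = 0.241), and within the first library set, which holds that library, it was −0.65 (limma adjusted p = 0.686). In edgeR it was −0.67 (adjusted p = 0.968), without an unadjusted p under 0.05. Lta was the member whose samples did not overlap, as for 4.54% of the genes tested. It was at −1.60 (standard error 0.96, limma adjusted p = 0.787) and at −2.12 within the first set (limma adjusted p = 0.401). Tnfrsf10b was at −2.43 (standard error 1.55) but at −0.32 in edgeR, and Tnfrsf1b was at 0.28 (standard error 0.21). The macrophage marker sum was lower in the same samples (1731 to 7201 against 16425 to 20708 normalized counts), and its part in the values of Lta and Ltb was not tested.

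In Nr2f6-/- mice 4 members were higher and 5 lower with αPD-L1 (median −0.13, −0.04 over all genes tested). None of the 9 passed the adjusted threshold in any of the 3 tools (0.325% of all genes in limma), none had an unadjusted p under 0.05 in any of them (9.7% of all genes in limma), and none was free of overlap (5.12% of all genes). Fas was at 1.01 (standard error 0.58, limma adjusted p = 0.609) and Tnfsf14 at −2.15 (standard error 1.14, limma adjusted p = 0.551), the smallest adjusted p of a member here. For Tnfsf14 the difference was −3.60 within the first library set, −1.35 in edgeR and −1.44 without Nr2f6-/- αPD-L1 replicate 1. Lta was at −1.48 (standard error 0.96), but at −0.077 within the first library set, the only samples of both treatments in 1 set, at −0.62 in edgeR and at −0.85 without Nr2f6-/- αPD-L1 replicate 5. Tnfrsf10b was at −2.68 (standard error 1.55) and Ltb at −0.26 (standard error 0.45). The sign of the Ltb difference turned within the first library set (0.52) and with replicate number as a block (0.30).

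Whether the αPD-L1 effect differed between the genotypes was tested as an interaction. It called 0% of all genes in limma and none of the 9 members, with 4.97% of all genes and no member at an unadjusted p under 0.05, and no member in edgeR or DESeq2 at either level. DESeq2 called 76 of all genes and edgeR 0. The estimates were 1.18 for Fas (95% interval −0.50 to 2.87), −1.83 for Tnfsf14 (−5.12 to 1.47) and 0.72 for Ltb (−0.58 to 2.03). For Fasl (−0.94 to 0.92) and Tnfrsf1b (−0.87 to 0.33) the intervals were narrower, and both held 0.

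The combined change was compared between Nr2f6-/- αPD-L1 and Nr2f6+/+ IgG2b samples, which are also the samples of the comparisons above. Of the members 5 were higher and 4 lower (median 0.03, −0.12 over all genes tested), and none passed the adjusted threshold in limma (0.617% of all genes), edgeR or DESeq2. Lta was at −2.11 on the log2 scale (standard error 0.96, limma adjusted p = 0.495) and was the only member with an unadjusted p under 0.05, against 9.04% of all genes. In edgeR its value was −1.23 (adjusted p = 0.847), within the first library set −0.70 (limma adjusted p = 0.823) and without Nr2f6-/- αPD-L1 replicate 5, at 7.20, −1.48 (limma adjusted p = 0.663). The samples did not overlap for 2 members, against 6.17% of all genes: Tnfrsf1b was higher by 0.39 (standard error 0.21, limma adjusted p = 0.616) and Tnfrsf10b was at −2.46 (standard error 1.55, limma adjusted p = 0.730). Fasl was at 0.50 (standard error 0.32), Tnfrsf1a at 0.51 (standard error 0.39) and Ltb at −0.77 (standard error 0.45), but Ltb was at 0.0049 within the first library set. In edgeR Tnfrsf10b was at −1.68. The macrophage sum (1068 to 2781 against 16425 to 20708) and the T cell sum (78849.8 to 94521 against 52543 to 66168) both differed without overlap in the same samples. Of the 7 T cell markers 6 were higher and 5 had an unadjusted p under 0.05, with 0 called by limma or edgeR. DESeq2 called Cd8b1 (0.76, adjusted p = 0.0414). The part of the macrophage or T cell markers in these differences was not tested.

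**Figure D3:**
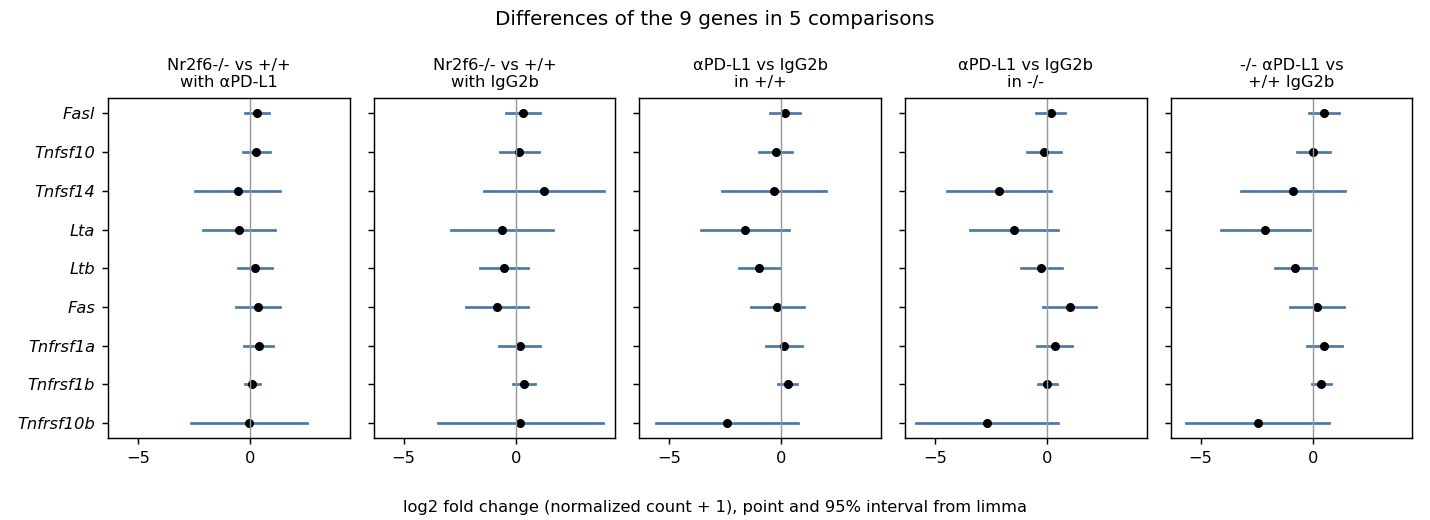
Log2 fold change of log2(normalized count + 1) (x axis, same scale in all panels) of the 9 genes (y axis) in 5 comparisons, with points for the estimate and lines for the 95% interval from limma. Only the intervals of Ltb in Nr2f6+/+ mice and of Lta in the last panel exclude 0, and the intervals are widest for Tnfrsf10b and narrowest for Tnfrsf1b.

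The rest of the pathway was read from lists of its ligands, receptors and signalling proteins. Of 13 other TNF superfamily ligands 7 were tested, and 0 were called in any of the 6 comparisons by limma, edgeR or DESeq2, with 0 to 3 at an unadjusted p under 0.05 in limma. The 3 were between the genotypes with αPD-L1 (9.73% of all genes), 2 were in the combination (9.04%), 1 was for αPD-L1 in Nr2f6-/- mice (9.7%) and 0 were in the other comparisons. Between the genotypes with αPD-L1, 1 of the 7 was higher and 6 lower in Nr2f6-/- mice (median −1.43). The higher one was Tnf itself, the gene between Lta and Ltb, with 68.4 to 612 normalized counts in Nr2f6-/- and 0 to 466 in Nr2f6+/+ αPD-L1 samples, a difference of 1.93 (limma adjusted p = 0.507). Without Nr2f6+/+ αPD-L1 replicate 2, the sample at 0, it was 0.66 (limma adjusted p = 0.732), in edgeR 0.89, and in the first and second library set 3.27 and 0.60. Tnfsf9, which encodes the ligand of 4-1BB, was at −3.07 (limma adjusted p = 0.355), with 2 Nr2f6-/- αPD-L1 samples at 0, replicates 3 and 5; leaving out either gave −2.18, and edgeR −1.54. Cd40lg, the helper T cell ligand of CD40, was at −2.64 in the combination (limma adjusted p = 0.587). Its difference was −1.62 without Nr2f6-/- αPD-L1 replicate 1, the sample at 0, −3.30 without Nr2f6+/+ IgG2b replicate 1 and −1.87 without Nr2f6+/+ IgG2b replicate 2.

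Of 24 other receptors of the family 17 were tested, with 0 called by limma or edgeR in the 6 comparisons and 0 or 1 by DESeq2. At an unadjusted p under 0.05, limma gave 6 of the 17 in the combination (9.04% of all genes), 4 between the genotypes with αPD-L1 (9.73%), 3 and 4 for αPD-L1 in Nr2f6+/+ and Nr2f6-/- mice (7.24% and 9.7%), 0 between the genotypes with IgG2b (5.35%) and 1 for the interaction (4.97%). Tnfrsf9, which encodes the costimulatory receptor 4-1BB, ranged from 3271 to 5512 in Nr2f6+/+ and from 1890.2 to 3650 in Nr2f6-/- αPD-L1 samples, with overlap. It was at −0.78 (standard error 0.18, limma adjusted p = 0.0634, DESeq2 adjusted p = 0.00424), just outside the threshold in the main test. With IgG2b the Tnfrsf9 mean was higher in Nr2f6-/- (4629) than in Nr2f6+/+ mice (3724). The interaction was −1.10 (limma adjusted p = 0.755). DESeq2 also called Tnfrsf9 for αPD-L1 in Nr2f6-/- mice (−0.81, adjusted p = 0.0201). Cd27, another costimulatory receptor gene, was at 1793, 3373 and 2214 in control and between 3505 and 6318 in Nr2f6-/- αPD-L1 samples, which did not overlap. The difference was 1.06 (standard error 0.26, limma adjusted p = 0.0542, DESeq2 adjusted p = 0.0134), in the samples whose T cell marker sums did not overlap either. Tnfrsf13b was at −1.12 with αPD-L1 in Nr2f6+/+ and at −1.29 in Nr2f6-/- mice (limma adjusted p = 0.620 and 0.335).

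The death receptor signalling list, with the adaptor, caspases and necroptosis kinases, had 19 of its 22 genes tested. Limma and edgeR called 0 in all 6 comparisons, and DESeq2 called only Ripk1, for αPD-L1 in Nr2f6-/- mice. At an unadjusted p under 0.05 limma gave 2 of the 19 in that comparison (9.7% of all genes), 0 for αPD-L1 in Nr2f6+/+ mice (7.24%) and 1 in each of the others (4.97% to 9.73%). Ripk1, a kinase gene of the TNFR1 and necroptosis complexes, was at 699, 833 and 460.1 in Nr2f6-/- IgG2b samples. It lay between 774 and 1650.1 in Nr2f6-/- αPD-L1 samples (1.08, limma adjusted p = 0.103, DESeq2 adjusted p = 0.00907). The Nr2f6-/- IgG2b mean (664) was the lowest, while the Nr2f6-/- αPD-L1 mean was 1405. In Nr2f6+/+ mice the mean was 1280 with IgG2b and 1290 with αPD-L1. Above a mean of 100 normalized counts, the largest estimates between the genotypes with αPD-L1 were 0.67 for Ripk3 and −0.63 for Diablo (limma adjusted p = 0.730 and 0.534), the latter with −1.46 in the first and 0.20 in the second library set. Of 10 genes for shedding and processing of the ligands and receptors 8 were tested, and 0 were called by any tool, with 1 at an unadjusted p under 0.05 in limma between the genotypes with IgG2b (5.35% of all genes), 1 in the combination (9.04%) and 0 in the others.

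Among the 27 genes of the TNF receptor complexes, all tested, limma called 1 gene in 1 of the 6 comparisons (0.242% of all genes there). At an unadjusted p under 0.05 it gave 2 of the 27 between the genotypes and for αPD-L1 in either genotype (5.35% to 9.73% of all genes), and 1 in the combination and for the interaction (9.04% and 4.97%). Tnfaip3, a target of NF-kB whose product edits ubiquitin chains and restrains TNF receptor signalling, fell with αPD-L1 in Nr2f6+/+ mice. It was at 2749, 2923 and 3063 normalized counts in Nr2f6+/+ IgG2b samples and between 295 (median 880) and 1175 in Nr2f6+/+ αPD-L1 samples, without overlap. The difference was −2.02 on the log2 scale (standard error 0.38, limma adjusted p = 0.00927), with −1.87 in edgeR (adjusted p = 0.0131) and −1.88 in DESeq2 (adjusted p = 0.000225). It was −2.10 within the first library set (limma adjusted p = 0.0338). The call was lost, at the same direction, with no filter on low values (adjusted p = 0.0524), with replicate number as a block (−1.78, adjusted p = 0.0872) and when Nr2f6+/+ IgG2b replicate 1, 2 or 3 was left out (limma adjusted p = 0.0612, 0.0836 and 0.106).

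In Nr2f6-/- mice Tnfaip3 was at 3811, 5086 and 3751 with IgG2b and between 984 and 3348 with αPD-L1, again without overlap, with a difference of −1.22 (standard error 0.38, limma adjusted p = 0.222). The interaction, 0.80, was not called (standard error 0.53, limma adjusted p = 0.974), so a difference of its αPD-L1 effect between the genotypes was not shown. Between the genotypes with αPD-L1 it was 1.32 higher in Nr2f6-/- mice (standard error 0.31, limma adjusted p = 0.0634), 1.96 in the first and 0.69 in the second library set (limma adjusted p = 0.0459 and 0.766). It passed the threshold in DESeq2 (adjusted p = 0.00305), with a pseudocount of 10 (limma adjusted p = 0.0404), and without Nr2f6+/+ αPD-L1 replicate 1, Nr2f6-/- αPD-L1 replicate 5 or Nr2f6-/- αPD-L1 replicate 6 (limma adjusted p = 0.0458, 0.0458 and 0.0311). With IgG2b the genotypes differed by 0.52 (limma adjusted p = 0.989) and in the combination by −0.70 (limma adjusted p = 0.618). The macrophage sum was lower with αPD-L1 in the same samples as Tnfaip3, and its part in the result was not tested.

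**Figure D4:**
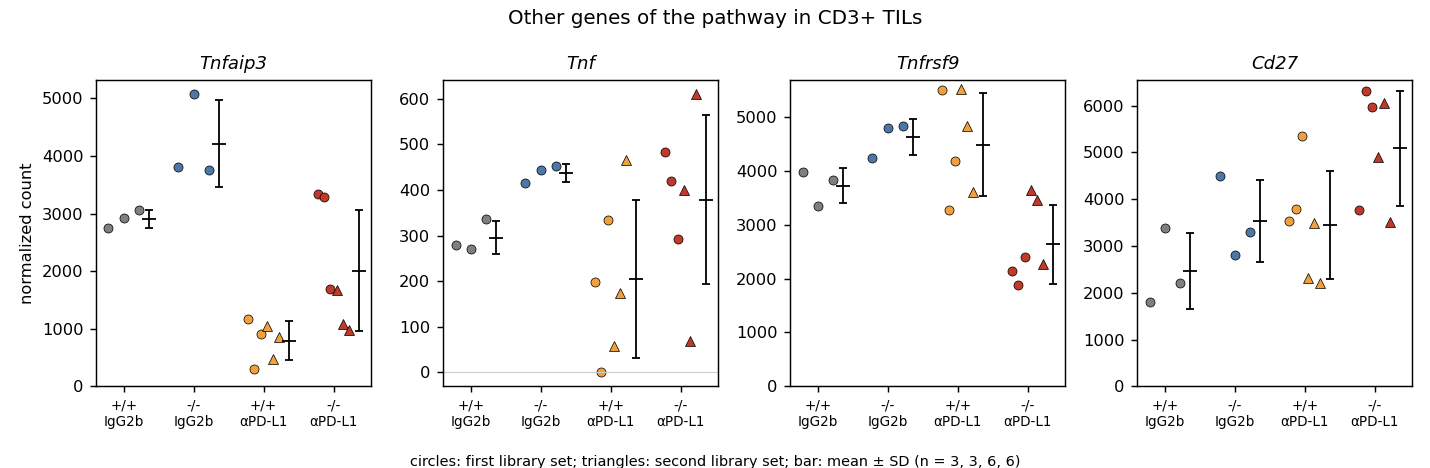
Normalized counts (y axis, linear, separate scale per panel) of Tnfaip3, Tnf, Tnfrsf9 and Cd27 in the 4 groups (x axis), with circles for the first and triangles for the second library set and bars for mean ± SD (n = 3, 3, 6, 6). All 6 Nr2f6+/+ αPD-L1 samples of Tnfaip3 (295 to 1175) lie below all IgG2b samples.

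For each member the 2 genes whose log2 levels followed it most closely over the 18 samples were taken among 8540 others averaging 100 normalized counts or more (8541 for Tnfrsf10b). The points share libraries and depth, so the values are descriptive. The genes were ranked by Pearson's r. Ltb had the closest followers, Capn1 (Pearson's r = 0.949, Spearman's rho = 0.905) and Bst2 (r = 0.943, rho = 0.903). Lta came next by r, though its rho was lower than that of genes following other members, with Noa1 (r = 0.888, rho = 0.655) and Cep152 (r = 0.863, rho = 0.627). Tnfsf10 was followed by Rab5c (r = 0.833, rho = 0.812) and Rab11a (r = 0.785, rho = 0.83), Fasl by Cd38 (r = 0.775, rho = 0.754) and Foxo3 (r = 0.743, rho = 0.794), and Tnfsf14 by Rnf215 (r = 0.792, rho = 0.445) and Fxr1 (r = 0.783, rho = 0.664). Of the receptors, Tnfrsf1a was followed by Ppp1r7 (r = 0.801, rho = 0.763) and Cab39l (r = 0.745, rho = 0.399), and Tnfrsf10b by Cdc73 (r = 0.784, rho = 0.847) and Cbfb (r = 0.777, rho = 0.690). Tnfrsf1b was followed by Npc2 (r = 0.750, rho = 0.668) and mt-Co1 (r = 0.747, rho = 0.699), and Fas by Dlg3 (r = 0.742, rho = 0.510) and Commd5 (r = 0.733, rho = 0.723). No member was among the 2 closest genes of another.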

How the data were processed

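RNA from 18 samples was studied. Per the labels and the study's methods, reads were trimmed by the authors (Cutadapt, Trimmomatic), mapped to mm10 with STAR and then Bowtie2, counted them per gene with HTSeq and divided by DESeq2 size factors; annotation, strand setting and versions are not given in the sources used here. The deposited signal is this normalized count per gene and sample, with replicates not pooled. Dividing by the smallest step of a column gave whole reads for 100% of values (tolerance 0.01). No 2 of the 153 pairs of columns were identical.

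Here, log2(normalized count + 1) of the genes with a mean of at least 10 was fitted with limma 3.58.1 (R 4.3.3) in 1 model of 4 group means over 18 samples, eBayes with trend. Tests were two-sided and adjusted by Benjamini-Hochberg over all 11992 genes, with a threshold of 0.05. On this scale the added 1 shrinks changes of low genes. Where single samples lie near 0, estimates can also be larger than in edgeR, as for Tnfrsf10b, Tnf and Tnfsf9. Intervals are 95%. All adjusted p-values are limma's unless another tool is named.

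Alternatives were a pseudocount of 10, no filter, scaling to the same total, edgeR 4.0.16, DESeq2 1.42.0, a replicate block, each library set alone and leaving out each replicate. The tests were checked on simulated data with changes, in genes with a mean of at least 100, larger than most differences of the members. The simulated spread between samples was set by the mean of a gene. For Lta, Tnfsf14 and Tnfrsf10b it was smaller than the spread seen here. This check does not show how smaller changes, or changes in genes as uneven as these, would fare. The members and lists were chosen with earlier results of these data known. Genes named are all members, Nr2f6, Tnf, list genes past the threshold, the 2 of largest change per list and comparison among those with a mean of at least 100 (Cd27, Tnfrsf9, Ripk1 and Tnfaip3 shown in more detail after their values were seen) and 2 likeness partners per member. Of 148 list entries 1 had no row. Gene positions are from GENCODE on GRCm38.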

Additional observations from a re-analysis of the deposited data

Results flagged for a closer look

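In the groups of 6, 65 sets of values from 33 named genes were searched for a sample that lay apart from the other 5 by Dixon's test, and 6 were found; chance gives about 1 in 20. Among the members it was Ltb in Nr2f6+/+ αPD-L1 replicate 1, at 2842 normalized counts with the next sample at 1077. In the lists, Otulin was at 2861 in Nr2f6-/- αPD-L1 replicate 1 (next 1971) and Mlkl at 483 in Nr2f6+/+ αPD-L1 replicate 4 (next 177). Nr2f6-/- αPD-L1 replicate 6 was found for 3 genes: Tnfrsf13b was high at 807 (next 405), Tnfrsf26 was at 0 (next 187) and Ripk1 was low at 774 (next 1392).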

How the results depend on the processing

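No member was called in any of the 6 comparisons under any of the alternatives run. The numbers of all genes called, which give the background shares, moved more. Between the genotypes with αPD-L1, 21 genes became 9 with no filter, 184 in DESeq2, 34 in the first and 0 in the second library set, and 9 to 27 when a replicate was left out (lowest without Nr2f6-/- αPD-L1 replicate 2). With IgG2b, 0 became 1 with a pseudocount of 10, 14 with no filter and 88 in DESeq2. For αPD-L1 in Nr2f6+/+ mice, 29 became 60 with a pseudocount of 10, 19 in edgeR, 94 in DESeq2 and 12 with a replicate block, and 6 to 29 with a replicate left out (lowest without Nr2f6+/+ IgG2b replicate 3). In Nr2f6-/- mice, 39 became 17 with no filter, 230 in DESeq2 and 8 in the first set, and 13 to 41 with a replicate left out (lowest without Nr2f6-/- IgG2b replicate 3). In the combination, 74 became 116 with a pseudocount of 10, 41 in edgeR and 177 in DESeq2, and 10 to 68 with a replicate left out (lowest without Nr2f6+/+ IgG2b replicate 2). The interaction went from 0 to 5 with no filter and 76 in DESeq2. The causes were not tested.

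Signs turned only for estimates that were not called. Between the genotypes with αPD-L1, Lta became 0.11 in edgeR, 0.097 in DESeq2, 1.42 in the first set and 0.13 without Nr2f6-/- replicate 5 (lowest −0.91 without replicate 2); in the first set Tnfrsf1b became −0.069 and Relt −0.076; in the second Tnfsf14 became 1.07, Ltb −0.23, Tnfrsf10b 0.39 and Diablo 0.20. With a replicate left out, Tnfsf14 ranged from −0.92 to 0.17, the latter without Nr2f6-/- replicate 1. Tnfrsf10b became 0.35, 0.36 and 0.16 without Nr2f6-/- replicates 2, 3 and 4, and 0.61 and 0.75 without Nr2f6+/+ replicates 1 and 4 (lowest −0.79). Relt with IgG2b became 0.041 without Nr2f6-/- replicate 1 (lowest −1.41). Ltb in Nr2f6-/- mice became 0.30 with the block and 0.52 in the first set, and in the combination 0.0049 in the first set. Rnf31 in the combination became 0.41 in edgeR, 0.39 in DESeq2 and 0.14 without Nr2f6-/- αPD-L1 replicate 6 (lowest −1.58). Scaling to the same total moved the median of all genes from −0.10 to −0.19 in Nr2f6+/+ mice, and edgeR moved it to 0.045.

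Samples that share a replicate number hardly deviated together (r between −0.014 and 0.029 over 18 pairs, mean 0.0071). For different numbers the mean was −0.0035. Deviations were taken from the mean of each group within the first library set, which ties this value to the one for shared numbers, so it is no separate comparison. Still, 10 of 12 samples were closest to their own number. The labels do not say whether the numbers mark pairs, and these values do not settle it. The block called 0 members in every comparison. The depth of 12473391 reads or more limits Tnfrsf10b most, with 2 samples under 3 reads.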
